A study of Mus musculus with 6 samples.

Results

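The regions described here lay between genes, 5 to 50 kb from the nearest protein-coding gene, and carried histone H3 both crotonylated and acetylated at lysine 9 in mouse P19 cells. Peaks of the 4 deposited lists were merged where they shared at least 1 bp. A merged region was kept when each list had a peak in it, when its longest peak was under 2000 bp in each list, when it touched no protein-coding gene record, and when the nearest end of such a record was 5 to 50 kb away. There were 2460 of these regions, which made up 7.90% of the 31127 merged regions, 10.7% of the 22972 regions with a peak in all 4 lists (shared regions below) and 16.7% of the 14715 shared regions under the length limit (narrow shared regions below). The regions were thus chosen by presence in the lists, peak length and distance, and these are given only as a description. Just inside the lower distance bound were regions 5015 bp from Gabbr1 and 5017 bp from Gsx2, and just outside it regions 4984 bp from Hoxa13 and 4985 bp from Nkx2-3. At the upper bound the last region inside was 49923 bp from Kif2a and the first outside was 50110 bp from Smug1. The longest peaks inside the length limit were 1999 bp, near Epcam and Svil, and the next outside were 2000 bp near Etf1 and 2003 bp near Ptp4a2.

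P19 is an established line of undifferentiated mouse embryonal carcinoma cells, grown in proliferation medium with fetal bovine serum. Chromatin was prepared without crosslinking and precipitated with 1 antibody to crotonylated lysine 9 (H3K9cr) and 1 antibody to acetylated lysine 9 (H3K9ac), with 2 biological replicates of each. The 4 libraries share the cell line, the medium and the method, and differ by antibody. Because 1 line and 1 antibody a mark were used, the mark and its antibody cannot be told apart, and in bulk chromatin a mark in fewer cells and less of the mark per cell cannot be told apart either. The 2 input libraries were not analysed here, and read depth is not given in the sources used here. The lists held 28360 and 28345 peaks for H3K9cr replicates 1 and 2, and 26096 and 27474 for H3K9ac replicates 1 and 2. As a check of the cell type, all 8 embryonal carcinoma genes examined, among them Pou5f1, Nanog and Utf1, had a peak of every list within 1 kb of a gene end. The same held for 3 of 5 fibroblast, 1 of 5 blood, 1 of 2 liver and 2 of 3 muscle genes, and for 61.5% of all 21887 coding genes. A marked end is thus common, and these few genes separate cell types only weakly.

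Acetylation of histone H3 lysine 9 is laid down by acetyltransferases of the Gcn5 and Pcaf type and is found on nucleosomes beside active promoters and at active enhancers, the stretches of DNA away from genes that raise transcription. Crotonylation is a longer acyl modification of the same lysine, made from crotonyl-CoA and read by proteins with YEATS domains, and it is known to occupy much the same places as acetylation. In pluripotent cells such intergenic sites include enhancers of genes for pluripotency factors as well as the promoters of long noncoding RNAs (lncRNAs), small RNAs and transfer RNAs (tRNAs).

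Some of the regions coincided with the annotated start of an lncRNA. The promoters of 6 such lncRNAs are printed because their regions were among the strongest of all, together with the promoter of Gm34441, whose region was as strong but which held none of the motifs searched. Each is the RefSeq sequence of GRCm38.p6 from 250 bases before to 50 bases after the annotated start, 5′ to 3′ on the strand of the lncRNA. Capitals mark the GC box GGGCGG, bound by Sp1-type factors; the CCAAT box CCAAT, bound by NF-Y; the ETS core CCGGAAG; and the cyclic AMP response element TGACGTCA, bound by the Creb and Atf factors. Each was searched on both strands, as were the TATA box TATAAA and the NRF1 motif, which occurred in none of the printed promoters. No other motif was searched, a match is no more than a match of letters, and no 2 of these motifs overlapped in what is printed.
Snhg17, chr2:158361460-158361759, minus strand: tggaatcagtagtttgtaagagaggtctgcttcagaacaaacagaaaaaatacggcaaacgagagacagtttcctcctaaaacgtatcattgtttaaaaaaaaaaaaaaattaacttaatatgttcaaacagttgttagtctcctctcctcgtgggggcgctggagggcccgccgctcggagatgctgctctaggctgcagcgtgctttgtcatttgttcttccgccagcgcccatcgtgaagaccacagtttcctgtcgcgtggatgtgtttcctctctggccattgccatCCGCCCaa
2700038G22Rik, chr5:23850347-23850646, plus strand: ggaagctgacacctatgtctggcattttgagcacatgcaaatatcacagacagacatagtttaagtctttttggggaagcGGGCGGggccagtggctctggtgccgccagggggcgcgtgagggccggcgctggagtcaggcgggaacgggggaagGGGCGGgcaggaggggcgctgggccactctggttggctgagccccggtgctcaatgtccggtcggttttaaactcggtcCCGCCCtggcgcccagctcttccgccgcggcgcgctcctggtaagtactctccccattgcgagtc
1810044D09Rik, chr6:91440737-91441036, plus strand: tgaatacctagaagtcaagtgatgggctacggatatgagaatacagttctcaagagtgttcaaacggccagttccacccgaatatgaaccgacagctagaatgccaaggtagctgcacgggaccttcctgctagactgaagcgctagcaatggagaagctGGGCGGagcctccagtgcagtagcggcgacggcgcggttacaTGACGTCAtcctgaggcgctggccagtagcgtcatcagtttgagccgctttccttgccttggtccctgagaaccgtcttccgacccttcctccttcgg
4930471M09Rik, chr6:91440805-91441104, minus strand: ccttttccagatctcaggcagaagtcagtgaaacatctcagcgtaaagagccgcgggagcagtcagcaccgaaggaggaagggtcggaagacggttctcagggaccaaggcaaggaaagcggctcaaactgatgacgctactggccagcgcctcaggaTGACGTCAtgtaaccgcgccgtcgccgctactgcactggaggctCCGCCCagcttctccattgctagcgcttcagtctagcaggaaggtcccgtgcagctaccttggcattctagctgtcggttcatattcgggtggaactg
AU020206, chr7:75782071-75782370, minus strand: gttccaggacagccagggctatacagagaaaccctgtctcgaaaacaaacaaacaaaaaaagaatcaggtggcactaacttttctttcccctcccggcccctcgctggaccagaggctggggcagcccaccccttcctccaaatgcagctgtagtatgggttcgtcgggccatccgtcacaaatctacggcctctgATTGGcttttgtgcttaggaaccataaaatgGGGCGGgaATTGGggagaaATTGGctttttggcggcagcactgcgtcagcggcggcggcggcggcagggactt
Snhg20, chr11:117076533-117076832, plus strand: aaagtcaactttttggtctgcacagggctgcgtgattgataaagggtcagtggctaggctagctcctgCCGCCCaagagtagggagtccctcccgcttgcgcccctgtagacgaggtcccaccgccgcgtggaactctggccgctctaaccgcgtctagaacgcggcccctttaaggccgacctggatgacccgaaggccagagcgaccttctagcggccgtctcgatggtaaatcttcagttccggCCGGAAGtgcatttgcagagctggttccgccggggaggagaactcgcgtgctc
Gm34441, chr6:55536793-55537092, plus strand: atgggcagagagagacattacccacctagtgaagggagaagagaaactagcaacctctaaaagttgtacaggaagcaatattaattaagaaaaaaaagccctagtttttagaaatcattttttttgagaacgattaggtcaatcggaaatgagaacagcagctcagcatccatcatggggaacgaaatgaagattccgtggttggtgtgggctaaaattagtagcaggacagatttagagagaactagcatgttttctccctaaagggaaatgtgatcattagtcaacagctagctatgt

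The promoters of 1810044D09Rik and 4930471M09Rik were read from opposite strands of the same place, so the cyclic AMP response element in both lines is a single site. By number of CpG dinucleotides in 300 bases, Snhg20 held 25, 2700038G22Rik 23, 4930471M09Rik 20, 1810044D09Rik 19, Snhg17 and AU020206 15 each, and Gm34441 held 4.

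The regions also overlapped the records of 7 microRNAs. For 6 of them 10 mature forms were looked up, which had 10 distinct seeds, so none shared a seed. For each of the 5 microRNAs with a mature sequence wholly inside a region, 1 arm is shown, from RefSeq GRCm38.p6, 5′ to 3′ in RNA letters, with the seed (bases 2 to 8, the part that pairs with target RNAs) in capitals.
mmu-miR-7671-5p, chr11:53763632-53763654, minus strand: aGGCUCCGcucuggcuagcuucc
mmu-miR-6516-5p, chr11:117077370-117077391, plus strand: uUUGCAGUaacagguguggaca
mmu-miR-1983, chr13:21896930-21896950, minus strand: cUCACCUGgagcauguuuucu
mmu-miR-713, chr13:62760807-62760825, plus strand: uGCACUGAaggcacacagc
mmu-miR-7229-3p, chr5:113324493-113324516, minus strand: uACACAGAccagugacuuucugca

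The region touching Mir351, between Plac1 and Hprt on chromosome X, ended inside the hairpin and did not reach miR-351-5p. Mir145a, the precursor of a microRNA of smooth muscle, lay in a region with the lncRNA Carmn and is named only.

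The regions had moderate signal. Signal is given as fold enrichment, the authors' own ratio of the pileup of reads at a peak's summit to its local background, taken from the highest peak of a region. Median fold enrichment of the 2460 regions was 11.97 and 11.7 in H3K9cr replicates 1 and 2, and 9.19 and 12.1 in H3K9ac replicates 1 and 2. H3K9ac replicate 1 was the lowest library, and the H3K9cr values lay between those of H3K9ac. The range from the first to the third quartile was 8.09 to 21.0 and 7.66 to 20.4 in H3K9cr, and 6.20 to 15.9 and 7.87 to 21.5 in H3K9ac. Within each library a few regions were far stronger, up to 170, 187, 135 and 214 in the same order. The longest peak of a region had a median length of 819.5 and 857 bp in H3K9cr and 676.5 and 799 bp in H3K9ac. Few regions held more than 1 peak of a library, 1.46% and 0.772% in H3K9cr and 2.89% and 1.87% in H3K9ac. Weak peaks with a deposited −log10 q under 5 were more frequent in H3K9ac replicate 1 (7.56% of the regions) than in the other libraries, where the share was 2.07%, 2.32% and 2.11%.

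**Figure D1:**
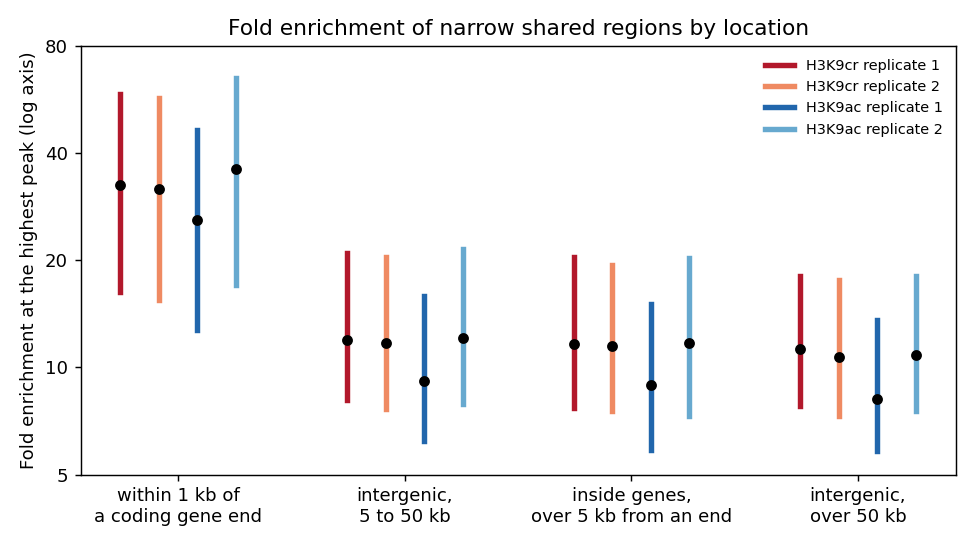
Fold enrichment (log axis, as deposited) of narrow shared regions in 4 locations; bars run from the first to the third quartile over regions, points are medians, and colours are the 4 libraries. The 2460 intergenic regions 5 to 50 kb away have medians of 9.19 to 12.1, against 26.0 to 36.0 for the 6367 regions within 1 kb of a coding gene end.

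To compare libraries that were scaled separately, each region was given its percentile of fold enrichment among the 22972 shared regions of the same library. The median percentile of the intergenic regions was 24.4 and 24.6 in the H3K9cr libraries and 24.3 and 24.2 in the H3K9ac libraries. The marks differed by 0.269 percentile points (24.5 ± 0.126 against 24.2 ± 0.0508, SD, n = 2 each), with an exact two-sided permutation p of 0.333, the smallest that 2 against 2 libraries can give. Without H3K9ac replicate 1 that difference was 0.00818. The regions stood in the lower part of the shared regions in every library, at nearly the same place for both marks. The shared regions included those over the length limit, which the rule left out, and fold enrichment moved with peak length. The part of the length limit in this low standing was not tested.

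Narrow shared regions within 1 kb of a coding gene end were stronger. Their median fold enrichment was 32.6, 31.7, 26.0 and 36.0 in H3K9cr 1, H3K9cr 2, H3K9ac 1 and H3K9ac 2. The intergenic regions lay 29.7 ± 0.450 percentile points lower (SD over 4 libraries), and were lower in all 4 libraries (exact sign permutation p = 0.125, the smallest that 4 libraries allow). Fold enrichment moved with peak length, and regions at gene ends were longer. Longest peaks averaged 1500 to 2000 bp in 202 intergenic regions and 2195 regions at gene ends. At that length the median percentile was 52.7, 52.3, 51.5 and 50.7 against 68.6, 69.0, 68.7 and 69.4. Under 500 bp the order was the same but the gap smaller, 11.5, 11.5, 12.5 and 11.8 against 14.2, 13.9, 16.0 and 16.0. The order was also the same at the lengths between. The intergenic regions came close to the 2730 narrow shared regions inside genes over 5 kb from an end. They were above them by 0.674 ± 0.253 percentile points in 4 of 4 libraries (exact sign permutation p = 0.125). That difference was 2.09 without H3K9ac replicate 1 and 1.15 without H3K9ac replicate 2. It did not hold at every length: at 1500 to 2000 bp the regions inside genes were higher, at 53.8, 52.9, 52.1 and 52.5. At 500 to 1000 and 1000 to 1500 bp the intergenic regions were higher in every library. They stood 2.71 ± 0.679 points above the 1069 narrow shared regions more than 50 kb from any coding gene. This again held in 4 of 4 libraries (exact sign permutation p = 0.125). Under 500 bp the regions beyond 50 kb were the higher in H3K9cr replicate 1, at 11.8 against 11.5. At every greater length the intergenic regions 5 to 50 kb away were higher in every library.

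Within their own range of distances the regions were denser near genes. Per Mb of intergenic DNA at that distance there were 6.53 regions at 5 to 10 kb (691 regions), 5.46 at 10 to 20 kb (809), 4.33 at 20 to 30 kb (449), 3.65 at 30 to 40 kb (293) and 3.31 at 40 to 50 kb (215). The nearest bin was 1.97 times as dense as the farthest (95% interval 1.69 to 2.31, covering counting error only). When noncoding and pseudogene records also counted as genes, the ratio was 4.21. Signal did not follow distance: the median percentile was 23.5, 24.3, 24.2, 23.0 and 22.4 from the nearest to the farthest bin. Where the strand of the nearest gene is in the tables, 1013 regions lay upstream (53.4%) and 884 downstream (46.6%); the strand was not given for 563. By chromosome, density was highest on chromosome 11, with 234 regions, and low on chromosome X, with 54.

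**Figure D2:**
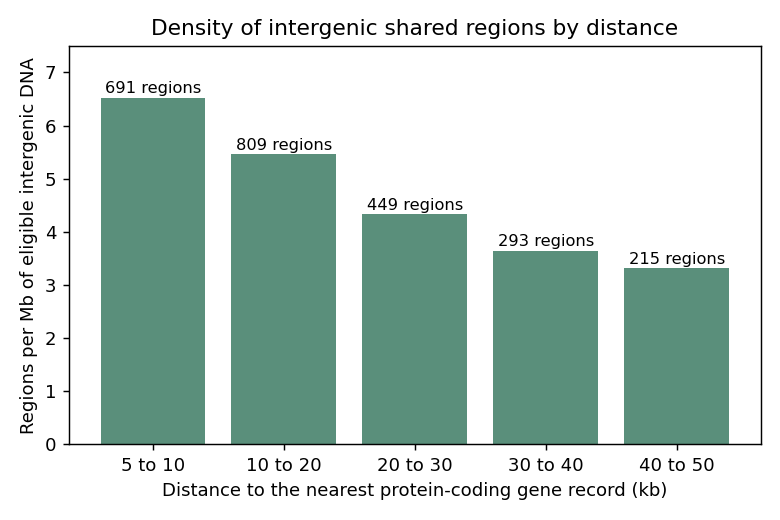
Regions per Mb of eligible intergenic DNA (bars, from 0) in 5 bins of distance to the nearest protein-coding gene record, with the number of regions above each bar. Density fell from 6.53 per Mb at 5 to 10 kb to 3.31 per Mb at 40 to 50 kb.

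The gene nearest to a region, by distance along the chromosome only, was usually marked itself. For 1935 of the 2460 regions (78.7%) the nearest coding gene had a peak of all 4 lists within 1 kb of an end, whereas 61.5% of all 21887 coding genes and 57% of the 15356 with any eligible intergenic space had one. The share was 54.1% for 13464 genes with eligible space and no region, and 76.0% for 1503 genes nearest to 1 region. It was 83.1% for 272 genes nearest to 2 and 82.6% for 121 genes nearest to 3 or more. Of 1355 olfactory and vomeronasal receptor genes with eligible space, 14 were nearest to a region. Only 1 of all 1463 such receptor genes had a marked end. The part of this family in the contrast was not tested. Regions beside unmarked genes were not weaker by value: their median fold enrichment was 12.2, 11.9, 9.33 and 12.8, against 11.97, 11.5, 9.17 and 11.9 beside marked genes.

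The regions gathered in some stretches between genes. They occurred in 1738 of the 12254 intervals between neighbouring coding genes that exceed 10 kb (14.2%), and 1212 regions (49.3%) shared their interval with at least 1 other, in 490 intervals. The fullest were the intervals between H4bc24 and Zfp184, Pard6b and Adnp, Rbfox2 and Apol7a, and Polg and Rhcg, with 7 regions each. Next came the interval between Fcgr1 and BC107364 with 6.

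The H4bc24 to Zfp184 interval lies on chromosome 13 (21837531 to 21945052), beside a histone gene, and 5 of its 7 regions held a tRNA. The strongest covered an isoleucine tRNA record together with Mir1983, the source of the miR-1983 sequence printed above, at 21896522 to 21898293. Its fold enrichment was 53.6 and 48.0 in H3K9cr and 34.9 and 60.8 in H3K9ac. The H3K9ac values enclosed those of H3K9cr. The Polg to Rhcg interval on chromosome 7 holds Mir9-3hg, host of a microRNA of neural progenitors, and 3 of its regions lay on that gene. Among them the region at 79514433 to 79516183 was the strongest of the interval, at 36.9 and 41.4 in H3K9cr and 26.7 and 46.9 in H3K9ac. In the Fcgr1 to BC107364 interval on chromosome 3, the region at 96413299 to 96415096 covered Terc, the RNA template of telomerase. Fold enrichment there was 110.9 and 75.1 in H3K9cr and 96.5 and 81.4 in H3K9ac, with replicate 1 above replicate 2 for both antibodies. All 7 regions between Pard6b and Adnp, a transcription factor gene needed for neural development, were weaker than the Terc region, with percentiles averaging from 12.7 to 58.7.

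Of the 10 strongest regions, 5 lay over the start of an lncRNA. The first of all was the region over the start of Snhg17, a host gene of small nucleolar RNAs, on chromosome 2 (158359937 to 158362025), 27084 bp from Lbp. Its fold enrichment was 170 and 187 in H3K9cr and 135 and 214 in H3K9ac, and by that value it ranked first of the 2460 in each library. It was followed by a region over the start of Gm34441, 35574 bp downstream of Adcyap1r1, a neuropeptide receptor gene, at 107 and 126 in H3K9cr and 74.1 and 124 in H3K9ac. The region of 2700038G22Rik, 6369 bp from Tomm7, a part of the mitochondrial import channel, had 89.2 and 113 in H3K9cr and 77.8 and 132 in H3K9ac. In each of these 3 regions H3K9ac replicate 1 was the lowest library, as in the medians over all the regions. The ranges of the antibodies overlapped in each.

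A region without an lncRNA start came next by mean percentile. It lay on chromosome 12 (85455485 to 85456611), 17278 bp upstream of Fos, an immediate early gene that encodes a subunit of AP-1, with 101 and 111 in H3K9cr and 78.5 and 111 in H3K9ac. The region of the divergent pair 1810044D09Rik and 4930471M09Rik, between Chchd4 and Wnt7a, had 107 and 99.9 in H3K9cr and 84.6 and 100.1 in H3K9ac. The others of the 10 strongest lay near Tmpo, Akap13 (over the start of AU020206), Tmem123, Sting1 and Ttc17, with percentiles averaging from 88.7 to 89.2. By summit pileup the Tmem123 region was the highest of all in each library, at 1121 and 1177 in H3K9cr and 805 and 1270 in H3K9ac. The Snhg17 region had a pileup of 494 and 566 in H3K9cr and 348 and 638 in H3K9ac. Snhg20, another small nucleolar RNA host, lay with Mir6516 in a region 37094 bp upstream of Sec14l1, at 82.4 and 90.9 in H3K9cr and 69.3 and 100.1 in H3K9ac. At the other end, the 5 weakest lay near Fcrl1, Wdr7, Hoxb9, Eomes and Map2k6. The region 9075 bp upstream of Eomes, a T-box gene of early mesoderm, had 3.14 and 3.69 in H3K9cr and 3.82 and 3.26 in H3K9ac, against lowest values of 2.47 to 2.76 over the regions of each library.

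Annotated noncoding genes lay in a minority of the regions, and more often in strong ones. In all, 741 regions (30.1%) overlapped a noncoding or pseudogene record, 649 (26.4%) an lncRNA, 205 (8.33%) the 300-base window at an lncRNA start, 56 a pseudogene, 23 a tRNA and 7 a microRNA. Between the 492 weakest and the 492 strongest regions, the share with any record was 24.2% against 38.0%, with an lncRNA start 5.28% against 13.4%, and with a tRNA 0% against 3.25%. Most of the 492 strongest thus still overlapped no noncoding record in the table. Regions with an lncRNA start had longest peaks with medians of 1037 and 1039 bp in H3K9cr and 887 and 1012 bp in H3K9ac. Over all the regions these medians were 819.5 and 857 bp in H3K9cr and 676.5 and 799 bp in H3K9ac. Signal rose with peak length, and the part of length in these shares was not tested. Among the narrow shared regions more than 50 kb from coding genes, 31.2% overlapped an lncRNA and 0 of 1069 a tRNA.

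**Figure D3:**
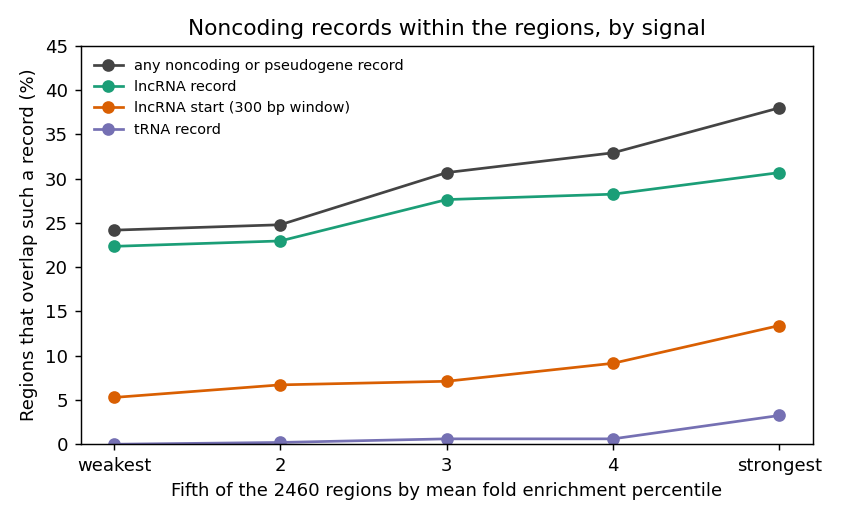
Share of the intergenic regions (%) that overlap a noncoding or pseudogene record, an lncRNA, an lncRNA start or a tRNA, in 5 groups of 492 regions ordered by mean fold enrichment percentile. The share with an lncRNA start was 5.28% in the weakest and 13.4% in the strongest group. The groups were not matched for peak length.

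The tRNA regions had high signal for intergenic sites. They held 28 of the 408 tRNA records, and their median mean percentile was 47.1 against 23.5 for the other regions. Their longest peaks were also longer, with medians of 1262 and 1285 bp in H3K9cr and 1118 and 1125 bp in H3K9ac. Over all intergenic regions averaging 1000 to 1500 bp, the median percentile was 38.4 and 39.4 in H3K9cr and 38.3 and 38.2 in H3K9ac. The part of peak length in the tRNA signal was not tested. The strongest tRNA region held a methionine tRNA, 6085 bp upstream of Pom121l2 on chromosome 13 (21974090 to 21975095). It had 99.5 and 54.0 in H3K9cr and 96.1 and 63.6 in H3K9ac. Replicate 1 was the higher library for both antibodies there. A region with proline and lysine tRNAs, 9033 bp downstream of Zfp213, went the other way, at 66.0 and 92.4 in H3K9cr and 41.1 and 107 in H3K9ac. Beside Cfap126 on chromosome 1, a single region (171101704 to 171103854) held 4 tRNA records and had 51.7 and 44.5 in H3K9cr and 42.6 and 57.9 in H3K9ac.

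Of the microRNA regions, that of Mir1983 is given above. The region of Mir7671, 5537 bp upstream of Irf1, an interferon regulatory factor gene, had 15.0 and 27.7 in H3K9cr and 11.3 and 28.2 in H3K9ac, with replicate 2 higher for both antibodies. That of Mir713, which also overlapped the noncoding gene Platr25, had 29.1 and 21.3 in H3K9cr and 17.4 and 29.1 in H3K9ac. The Mir7229 region, 12971 bp upstream of Sgsm1, was the weakest of the 7, at 11.8 and 14.3 in H3K9cr and 12.1 and 11.8 in H3K9ac. At Mir713 and Mir7229 the values of the antibodies overlapped. The region with Mir145a and Carmn had 38.7 and 35.5 in H3K9cr and 30.3 and 38.9 in H3K9ac, and that of Mir351 38.5 and 37.5 in H3K9cr and 21.3 and 29.0 in H3K9ac.

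Promoter letters could be compared for lncRNA starts. There were 3306 lncRNA starts with a RefSeq promoter sequence at 5 to 50 kb from coding genes, and 242 of them (7.32%) fell in these regions. The 244 starts whose window overlapped a region had a median of 8 CpG dinucleotides per 300 bases, against 3 for 2893 starts at such distances with no listed peak, 4 for all 11588 lncRNA starts and 13 for all 21263 coding starts. The GC box, found 3 times in the 2700038G22Rik sequence above, occurred in 34.8% of the starts in the regions, 7.02% of those with no listed peak, 16.3% of all lncRNA and 46.2% of all coding starts. By both measures the starts in the regions stood between other lncRNAs and coding genes. The TATA box occurred in 9.02%, 16.2%, 15.5% and 12.6% of the same sets, and the CCAAT box in 34.4%, 37.4%, 36.0% and 38.2%. The cyclic AMP response element occurred in 3.28%, 0.691%, 0.975% and 2.23% of them. That 3.28% was 8 of 244 starts, which belonged to 212 lncRNA genes. The single site of 1810044D09Rik and 4930471M09Rik was counted for both. These are counts of letters in windows of equal length, and the part of base composition in the signal was not tested.

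Regions near pluripotency genes were examined gene by gene. Of 18 genes for pluripotency factors and related regulators, 9 were the nearest gene of at least 1 region, and these had 15 regions. Pou5f1, Klf5, Lefty2, Nodal, Fgf4, Lin28a, Tdgf1 and Utf1 were among those with none by this rule. It leaves out regions inside genes, under 5 kb, beyond 50 kb or over the length limit. Except for Klf5 (61.9 kb), these genes had little eligible space, from 6.35 kb at Tdgf1 to 15.8 kb at Lin28a. Sox2, Klf4, Myc and Mycn each had 90 kb, while Lefty1 had a region with 8.47 kb.

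The strongest of the 15 lay on chromosome 6 (122669664 to 122670670), 36818 bp upstream of Nanog, a homeodomain factor of the pluripotent state, and 39392 bp from Dppa3. Its fold enrichment was 80.03 and 74.6 in H3K9cr and 51.5 and 90.3 in H3K9ac, an average percentile of 81.3 ± 3.65 (SD, n = 4). The H3K9ac libraries lay on either side of both H3K9cr libraries. Next was a region 7799 bp upstream of Id3, which encodes an inhibitor of basic helix-loop-helix factors downstream of BMP signals, at 39.5 and 48.2 in H3K9cr and 37.3 and 52.4 in H3K9ac. A second region 38298 bp upstream of Id3 had 11.96 and 11.7 in H3K9cr and 6.77 and 13.4 in H3K9ac. For both Id3 regions the H3K9ac replicates enclosed the H3K9cr replicates.

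Klf4, a zinc finger pluripotency factor, had regions 11795 and 46531 bp downstream. The nearer had 10.3 and 14.5 in H3K9cr and 4.49 and 21.3 in H3K9ac. The farther had 16.2 and 16.1 in H3K9cr and 12.01 and 24.5 in H3K9ac. H3K9ac replicate 1 was the lowest and replicate 2 the highest in both, as in the medians over all the intergenic regions. A region 47228 bp from Myc, the proliferation factor, lay in the lncRNA gene Pvt1 and had 12.5 and 17.999 in H3K9cr and 10.6 and 16.2 in H3K9ac. Mycn, its relative, had a region 30499 bp downstream with 14.2 and 19.6 in H3K9cr and 9.90 and 14.7 in H3K9ac. The Myc and Mycn regions had mean percentiles of 31.1 and 31.5, above the median of 23.7 over all the intergenic regions. At Otx2, a homeodomain gene of early neural fate, a region 5757 bp upstream on the antisense gene Otx2os1 had 9.72 and 10.8 in H3K9cr and 9.90 and 11.8 in H3K9ac.

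Sox2, which encodes the partner of Pou5f1, had 3 regions, 7125 bp upstream, 18363 bp downstream and 39245 bp downstream. The farthest was the strongest, at 21.3 and 8.15 in H3K9cr and 17.4 and 8.51 in H3K9ac. The middle one had 9.10 and 5.99 in H3K9cr and 7.33 and 4.07 in H3K9ac, and the nearest 4.09 and 2.86 in H3K9cr and 4.65 and 3.52 in H3K9ac. In all 3 regions of Sox2, replicate 1 exceeded replicate 2 for each antibody, and the antibodies overlapped. Sall4, a zinc finger partner of Nanog, also had 3 regions, of which the strongest, 23186 bp away, had 22.6 and 6.89 in H3K9cr and 14.7 and 6.71 in H3K9ac. It showed the same order of replicates. By summit pileup as deposited, replicate 2 was the higher library for each antibody in this Sall4 region, 66.7 and 74.8 in H3K9cr and 37 and 52.7 in H3K9ac. The same held in all 3 Sox2 regions. The farthest had a pileup of 61.0 and 64.2 in H3K9cr and 44 and 58.6 in H3K9ac. The median pileup over the 2460 regions had this order too, 40.4 and 40.9 in H3K9cr and 27 and 42.0 in H3K9ac. The pileup order was thus not particular to the Sall4 and Sox2 regions. In the region 9436 bp from Lefty1, an inhibitor of Nodal, both H3K9cr libraries exceeded both H3K9ac libraries, 8.47 and 9.42 against 5.13 and 4.55. The Sall4 region 12698 bp away had the same order, 5.83 and 7.30 against 5.04 and 5.57. Neither passed the limma test between marks described further on (adjusted p = 0.595 for Lefty1 and 0.787 for Sall4).

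**Figure D4:**
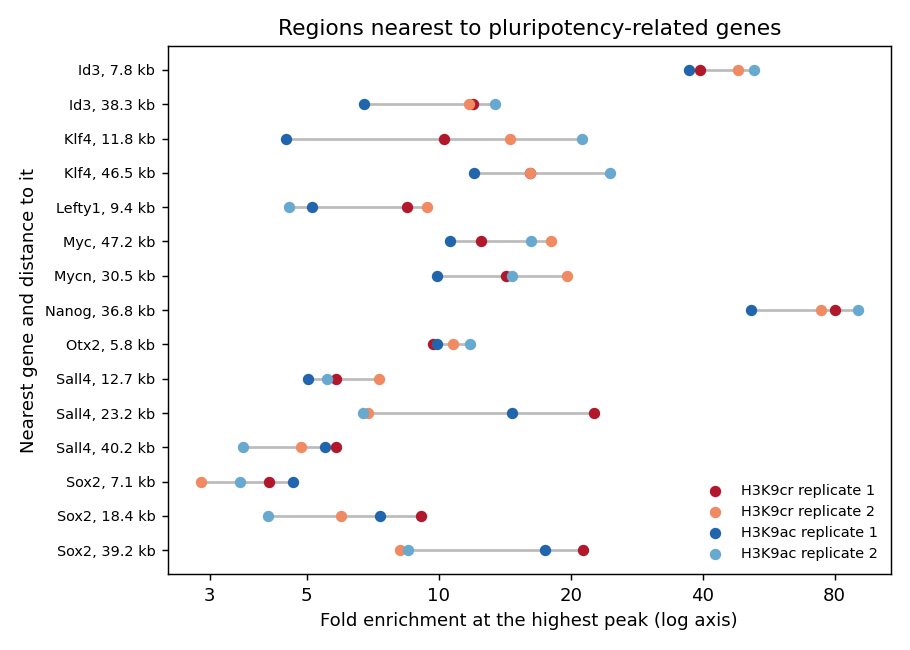
Fold enrichment (log axis, as deposited) at the 15 regions nearest to 9 pluripotency-related genes; each row is a region with its distance from the gene, and the 4 points are the libraries joined by a line. The Nanog region runs from 51.5 to 90.3 and the nearest Sox2 region from 2.86 to 4.65.

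Gene families differed in how often they were the nearest gene. Across all coding genes, 1896 of 21887 (8.66%) were nearest to at least 1 region, or 12.3% of those with eligible space, and the regions had a density of 4.89 per Mb of eligible space. Genes of pluripotency factors reached 31.6% of 38 genes with eligible space and 12.2 regions per Mb, and genes of neural progenitors and neurons 47.5% of 40 and 15.7 per Mb. Mesoderm and heart genes reached 31.0% of 29, endoderm and trophectoderm genes 28.6% of 21, and signalling genes 36.4% of 66. The endoderm and trophectoderm list had 7.41 regions per Mb, the mesoderm and heart list 14.2 and the signalling list 12.8, so these lists were above the value for all genes by both measures. The 12 Hox genes with eligible space had the highest density of the 14 lists, 25.5 per Mb, with 5 genes (41.7%) nearest to 8 regions in 0.314 Mb of space. These 8 regions were weak, with a median mean percentile of 6.35, the lowest of the 14 lists, against 23.7 over all regions.

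Lists of genes that most cells use were above the value for all genes too. Cytosolic ribosomal proteins reached 25% of 44 genes and 15.7 regions per Mb, which equals the neural list by density, and cell cycle genes 27.3% of 22 and 12.6 per Mb, near the pluripotency list. Mitochondrial ribosomal proteins reached 19.4% of 36 and 8.67 per Mb. A density above the value for all genes was therefore not particular to developmental genes. Collagens had 20.6% of 34 genes and 5.34 per Mb, the Zfp-numbered zinc finger genes 14.2% of 303 and 8.10 per Mb, and chromatin regulators 13.0% of 46 and 7.71 per Mb. Markers of blood and fibroblasts, cell types the culture should lack, had 15.0% of 20 and 3.70 regions per Mb. Olfactory and vomeronasal receptor genes, silent outside sensory neurons, had 1.03% of 1355 genes and 0.564 regions per Mb. The lists differ in the space around their genes and were chosen with these data known, so the values are a description.

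Among the neural list, the strongest region lay 19929 bp upstream of Pax2, a paired-box gene of the midbrain boundary and kidney, on chromosome 19 (44725663 to 44726671). It had 128 and 74.7 in H3K9cr and 101 and 84.0 in H3K9ac, with replicate 1 higher for both antibodies. Lhx5, a LIM homeobox gene of the forebrain, had regions 21341 and 32570 bp away, the nearer at 37.2 and 32.4 in H3K9cr and 35.0 and 52.5 in H3K9ac. At this Lhx5 region the values of the antibodies overlapped.

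In the mesoderm list the strongest region lay 11131 bp downstream of Myl3, a myosin light chain gene of heart whose own ends were not marked in all 4 lists, at 78.6 and 60.4 in H3K9cr and 71.6 and 69.6 in H3K9ac. Hand2, a heart factor gene, had a region on the lncRNA gene Hdnr at 29.7 and 13.5 in H3K9cr and 16.7 and 18.3 in H3K9ac. In the endoderm and trophectoderm list, a region 25660 bp from Tead4, a factor of the trophectoderm, had 58.9 and 58.8 in H3K9cr and 70.4 and 87.3 in H3K9ac. At Tead4 both H3K9ac libraries were above both H3K9cr libraries by fold enrichment. By summit pileup the antibodies overlapped, at 234.8 and 234.3 in H3K9cr and 191 and 259.7 in H3K9ac. The Tead4 region did not pass the limma test between marks described further on (adjusted p = 0.853). A region 19513 bp downstream of Krt18, a keratin of simple epithelia, had 52.0 and 47.3 in H3K9cr and 33.3 and 59.8 in H3K9ac.

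The 4 strongest regions of the signalling list lay near Smad7, Wnt7b, Id2 and Axin2. Smad7, an inhibitor of TGF-beta signals, had a region 23386 bp away at 42.5 and 55.2 in H3K9cr and 37.1 and 63.1 in H3K9ac. Axin2, a feedback inhibitor and target of Wnt signals, had a region 25107 bp upstream at 34.8 and 43.1 in H3K9cr and 23.4 and 47.2 in H3K9ac. In both, replicate 2 was the higher library for each antibody. The ligand gene Wnt7b had a region 43458 bp away at 50.4 and 48.5 in H3K9cr and 41.5 and 50.4 in H3K9ac, and Id2, a target of BMP signals, one 28138 bp upstream at 46.2 and 47.5 in H3K9cr and 32.9 and 44.2 in H3K9ac. Among cell cycle genes, Cdkn1a, which encodes the cyclin-dependent kinase inhibitor p21, had a region 11114 bp upstream on the lncRNA gene Trp53cor1, at 45.3 and 80.3 in H3K9cr and 35.0 and 76.2 in H3K9ac.

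No region passed the test for a difference between the marks. The summit pileup of every shared region was ranked within each library, the ranks were turned into normal scores, and limma compared 2 H3K9cr with 2 H3K9ac libraries over all 22972 shared regions with Benjamini-Hochberg adjustment. Called higher in H3K9cr were 0 of 2460 regions and 0% of shared regions, and called higher in H3K9ac likewise 0 of 2460 and 0%; the smallest adjusted p was 0.466. At an unadjusted p under 0.05 limma listed 262 of the 2460 regions (10.7%), 144 higher in H3K9cr and 118 higher in H3K9ac, against 7.6% of the shared regions. That split had no stable direction: it was 116 against 138 without H3K9cr replicate 1, 117 against 178 without H3K9cr replicate 2, 226 against 158 without H3K9ac replicate 1, 242 against 170 without H3K9ac replicate 2, and 165 against 165 with the replicate number as a block. With fold enrichment ranked in place of pileup, 94 (3.82%, against 2.10% of shared regions) had an unadjusted p under 0.05 and 0 were called. The median score difference, H3K9cr minus H3K9ac, was 0.00920 over the 2460 regions and −0.00517 over all shared regions. The median over the intergenic regions turned to −0.00276 without H3K9ac replicate 1 and to −0.000158 without H3K9ac replicate 2, so it gives no direction. The differences ran from −0.41 to 0.40 (5th to 95th percentile) over the intergenic regions. The spread was similar inside genes over 5 kb from an end, −0.35 to 0.45, and beyond 50 kb, −0.38 to 0.47, and narrower at gene ends, −0.22 to 0.17, so a wide spread was not particular to the intergenic regions 5 to 50 kb away. With 2 libraries a mark, a count of 0 calls does not show that the marks were equal at any region.

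**Figure D5:**
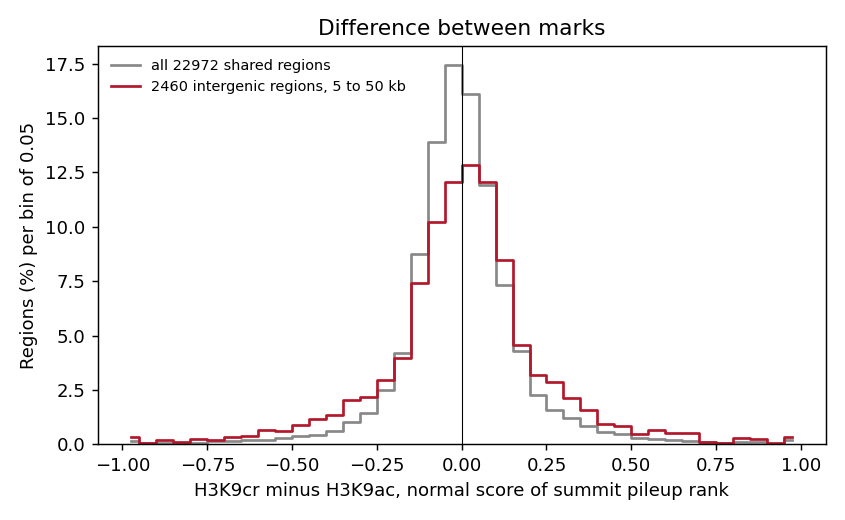
Distribution of the difference between the marks (H3K9cr minus H3K9ac, normal score of the summit pileup rank, bins of 0.05) over the 2460 intergenic regions and over all 22972 shared regions; differences beyond 1 in either direction are counted in the end bins. From the 5th to the 95th percentile the intergenic regions run from −0.41 to 0.40 and all shared regions from −0.26 to 0.28.

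Of the 6 regions with the smallest p-values in either direction, those near Sec11c, Zc3h11a, Hoxb9, Litaf and Smad6 had mean percentiles of 1.01 to 12.6, and the one near Mtres1 had 31.4. Toward H3K9cr the first was a region 11493 bp from Sec11c, a subunit of the signal peptidase, with a summit pileup of 22.5 and 23.3 in H3K9cr and 10 and 14.6 in H3K9ac and a score difference of 1.04 ± 0.0713 (SE; limma, unadjusted p = 6.04e-05, adjusted p = 0.466). Regions near Mtres1 and Zc3h11a followed, with score differences of 0.66 and 0.67. Toward H3K9ac the first was the region 15199 bp from Hoxb9, one of the 5 weakest of all, with a pileup of 13.2 and 14.1 in H3K9cr and 16 and 23.4 in H3K9ac and a score difference of −1.21 ± 0.0676 (SE; limma, unadjusted p = 2.41e-05, adjusted p = 0.466). Regions upstream of Litaf and of Smad6, an inhibitor of BMP signals, followed at −0.74 and −0.66. None of these 6 regions passed the adjusted threshold.

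Agreement between libraries depended on the value used. Across the 2460 regions, Spearman's rho of fold enrichment was 0.840 for the pair of H3K9cr libraries, 0.813 for the H3K9ac pair, and 0.905 and 0.920 between different marks with the same replicate number. For summit pileup the values were 0.952 and 0.925 within a mark and 0.923 and 0.938 between marks of the same number. By fold enrichment, then, libraries of the same number resembled each other more than replicates of 1 mark did, as at Sox2, Pax2 and Smad7, while by pileup there was no such order. The source of this difference between fold enrichment and pileup was not tested. Summits lay close together: their median distance was 29 and 34 bp between replicates of a mark and 28 to 35 bp between marks, and within the length of a nucleosome core in 79.7% to 83.4% of regions. At gene ends the same medians were 19 to 25 bp.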

How the data were processed

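Native ChIP-seq of P19 cells measured H3K9cr and H3K9ac in 2 biological replicates a mark, as the series design text says; the labels give groups and replicate numbers. The submitters' processing notes name Bowtie2 2.4.1, MACS2 2.2.7.1 and the GRCm38 build, and their options are not given. The authors deposited 1 peak list per library, not pooled. Per the file headers, the pileup column holds signal (read coverage) at each summit, p- and q-values are given as −log10, and fold enrichment is a ratio. These are the authors' values, and served only for describing, ranking and filtering within each list. The lists hold peaks above the authors' threshold (smallest −log10 q 2.02 to 2.06), so no listed peak is not a measured absence, and longer lists can come from depth as well as signal.

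Peaks were merged at an overlap of 1 bp and placed against RefSeq GRCm38.p6 gene records, whose strand was known for 79.9% of coding genes through the promoter table. Eligible space is DNA outside coding gene records at 5 to 50 kb. A gene end was called marked with a peak of every list within 1 kb. The limma fit (limma 3.58.1, R 4.3.3) used no block, and was tested on simulated data; p-values measure the spread between 2 libraries a mark. Other steps used Python 3.11.15, pandas 2.3.3 and scipy 1.17.1. Regions named are the 10 strongest and 5 weakest by mean percentile, those of the 5 fullest intervals, up to 4 a gene list, the 3 a direction with the smallest p, the pluripotency genes listed, and regions with microRNA, tRNA or lncRNA starts. The members and lists were chosen with earlier results of these data known. Alternatives changed the threshold, list size, merging, distance bounds, gene records, length limit, value ranked and block, and left out each library. Inputs and peaks of other locations were not analysed here beyond the comparisons given. Some named items are not reported here.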

Additional observations from a re-analysis of the deposited data

How the results depend on the processing

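The number of regions ranged from 1757, when all gene records counted as genes, to 2816 without H3K9ac replicate 1; it was 1768 at 10 to 50 kb, 2809 with no length limit, 2198 with a −log10 q of at least 5, 2294 with equal numbers of peaks and 2457 with peaks up to 200 bp apart merged. The density ratio of 1.97 between the nearest and farthest bin was 4.21 with all gene records; the cause was not tested. The share of regions beside a marked gene end, 78.7%, was 82.0% with a window of 2.5 kb, which can only add marked ends. The share in intervals with 2 or more regions, 49.3%, was 46.95% with a −log10 q of at least 5, where fewer regions are kept, and ranged from 50.1% to 52.1% when 1 library was left out. The summit distance between marks ranged from 30 to 35.5 bp when 1 library was left out, against 31.25 bp with all 4. The median score difference between marks over the regions, 0.00920, changed sign without H3K9ac replicate 1 (−0.00276) or 2 (−0.000158), and the split of unadjusted p-values under 0.05 turned toward H3K9ac without either H3K9cr library.

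Same-numbered libraries share only a number in the labels. Their deviations from the mark means correlated at r = 0.012 for pileup scores and r = 0.616 for fold enrichment scores over 22972 regions, with 2 pairs only. With the replicate number as a block, limma called 0 regions in either direction, also on fold enrichment ranks. At an unadjusted p under 0.05 it then listed 330 of the 2460 on pileup ranks (13.4%, against 7.67% of shared regions). On fold enrichment ranks it listed 241 (9.80%, against 5.91% of shared regions). Under every other setting run the count of called regions was likewise 0, leave-one-out fits included, in which a lone library is assumed to vary like the pair. For 25 named regions under 7 settings, 165 of 171 percentiles moved by less than the spread between libraries and 6 moved by more; under a setting, 4 were no longer among the regions. Depth is not given, so how far it limits the weak regions near the threshold of the lists was not tested.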
